A study of Mus musculus with 6 samples.

Results

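The embryonic globins and erythroid genes described here were Hbb-y, Hba-x, Hbb-bh1, Hbb-b2, Alas2, Slc4a1 and Klf1, 7 genes found by symbol among the 23827 rows of the deposited table. They were measured in ribosome-bound, polyadenylated RNA of brain endothelial cells of mouse embryos at E14.5 (embryonic day), on a C57BL/6 x 129/Sv background. Embryos overexpressing Axin1, the scaffold protein on which beta-catenin is marked for degradation, from a construct labelled R26 Axin1 IresLacZ were set against wild-type embryos. Each group had 3 libraries, called biological replicates in the labels, and the mothers of both groups had received tamoxifen at E12.5. Sources used here do not give the recombinase line, the cell type that drives it or the number of embryos pooled per library. Translating ribosome affinity purification (TRAP) pulls down the tagged ribosomes of chosen cells with the messenger RNA on them.

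Haemoglobin is a tetramer of alpha-like and beta-like globin chains, each holding a haem group. In the mouse embryo the first red cells arise in the yolk sac. These primitive erythroid cells circulate through the whole embryo, the brain vessels included, and make the embryonic chains, alongside adult alpha chains. Definitive red cells from the foetal liver follow and make the adult chains. The genes are known chiefly from erythroid cells, which are a separate cell type from the endothelium selected here.

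The promoters of globin and haem genes are known for a few short motifs. The CACCC box is bound by KLF1 and related factors, the GATA motif by GATA factors and the CCAAT box by NF-Y. RefSeq sequences of the 250 bases before the start of the gene, on build GRCm38.p6, were at hand for Hbb-y, Hba-x, Alas2 and Klf1. The first 3 are shown, since these genes had higher levels in the Axin1 libraries. Capitals mark the CACCC box by the letters of its name, or GGGTG where it lies on the opposite strand. They also mark the GATA motif, searched as GATAA or as TTATC on the opposite strand, and the CCAAT box, searched as its name and as ATTGG.
Hbb-y, chr7:103853208-103853457, minus strand: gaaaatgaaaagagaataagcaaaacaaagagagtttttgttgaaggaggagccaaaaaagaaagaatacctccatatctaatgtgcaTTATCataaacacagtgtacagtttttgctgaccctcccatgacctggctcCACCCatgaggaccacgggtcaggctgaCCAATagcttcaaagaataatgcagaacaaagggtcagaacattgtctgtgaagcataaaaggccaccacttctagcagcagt
Hba-x, chr11:32276350-32276599, plus strand: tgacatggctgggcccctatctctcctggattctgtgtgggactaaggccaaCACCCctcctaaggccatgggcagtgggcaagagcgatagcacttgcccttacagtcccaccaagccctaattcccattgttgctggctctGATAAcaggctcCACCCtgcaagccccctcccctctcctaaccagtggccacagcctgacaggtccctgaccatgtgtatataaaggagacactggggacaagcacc
Alas2, chrX:150547167-150547416, plus strand: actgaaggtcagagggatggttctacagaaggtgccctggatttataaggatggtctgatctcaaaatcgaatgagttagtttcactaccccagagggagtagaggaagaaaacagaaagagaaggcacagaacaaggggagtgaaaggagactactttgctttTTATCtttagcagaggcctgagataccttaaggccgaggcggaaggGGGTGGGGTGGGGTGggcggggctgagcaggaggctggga

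The Hbb-y window held 1 CACCC box, 1 GATA motif and 1 CCAAT box, with the CACCC box starting at -111 and the CCAAT box at -83 from the start of the gene. The Hba-x window held 2 CACCC boxes and 1 GATA motif, and no CCAAT. The Alas2 window held 3 CACCC boxes in a row, which share no base, and 1 GATA motif. The Klf1 window held 1 of each of the 3 motifs. Among 32851 windows of the same length, 52.0% held a CACCC box, 22.6% a GATA motif and 33.8% a CCAAT box, while 10.1% held both a CACCC box and a GATA motif. All 3 motifs were present in 3.45% of these windows. A match is a description of the letters in the window and not a bound site.

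Values were in RPKM, which scales reads to transcript length and library depth, and the number of reads behind each was recovered from the table. Recovered totals were 21076922 to 37040176 reads in the Axin1 libraries and 53524183 to 62507510 reads in the wild-type libraries, so that at 1 kb of transcript the limit of 3 reads, which an observed 0 allows, stood at 0.0807 to 0.142 RPKM in Axin1 and 0.0482 to 0.0561 RPKM in wild-type libraries. These limits cover counting error only. Axin1 itself averaged 37.8 ± 0.349 RPKM in Axin1 libraries and 14.4 ± 0.798 RPKM in wild-type libraries (SD, n = 3 each), with limma's log2 fold change at 1.34 (SE 0.06, adjusted p = 2.25e-05). The endothelial markers Pecam1, an adhesion molecule, and Cdh5, the junctional cadherin, were present in both groups, at averages of 386 and 394 RPKM in Axin1 libraries and 353 and 369.9 RPKM in wild-type libraries. Of the 12 endothelial markers listed, these included, 1 rose and 3 fell in limma's test, with a median log2 fold change of -0.14. The column names carry the tag RS216 for all Axin1 libraries and RS148 for all wild-type libraries, and the sources used here do not explain it. Should the tag mark a batch, that batch and the genotype cannot be told apart.

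The comparison asks which ribosome-bound transcripts differ with Axin1 overexpression. The embryonic globins Hbb-y, Hba-x and Hbb-bh1 were 4.41, 5.33 and 7.11 times as high in Axin1 libraries as in wild-type libraries by mean RPKM. The adult globin Hbb-b2 was 3.13 times as high, on few reads, and Alas2, the erythroid enzyme of the first step of haem synthesis, was 1.54 times as high. Slc4a1, the anion exchanger of the red cell membrane, was 1.90 times as high at a level under 1 RPKM. Klf1, the erythroid transcription factor, was 0.771 times as high, with overlapping groups.

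**Figure D1:**
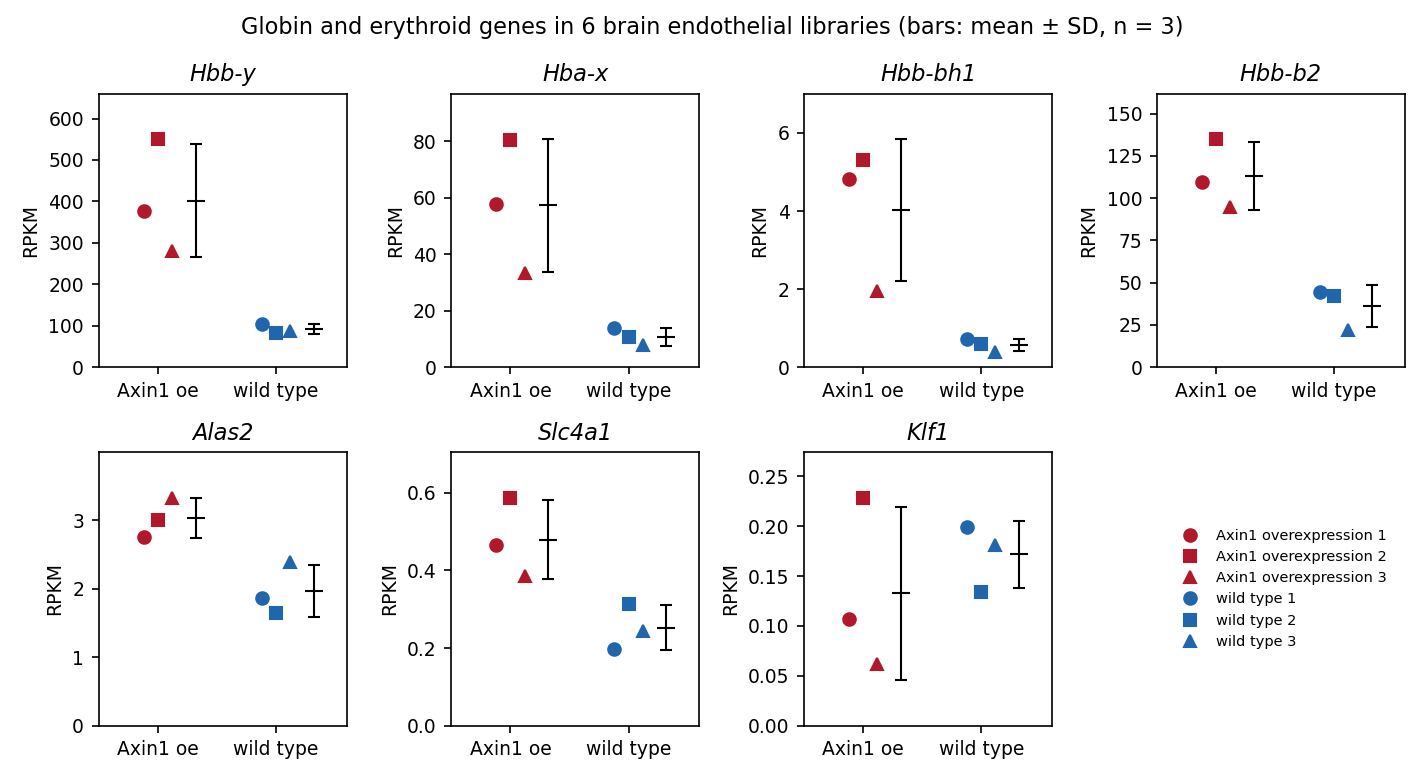
RPKM of the 7 genes in each library, with a panel and a linear axis from 0 for each gene; red points are the 3 Axin1 overexpression libraries (Axin1 oe), blue points the 3 wild-type libraries, and bars the mean ± SD. In 6 panels every Axin1 library lies above every wild-type library, while in the Klf1 panel the groups overlap.

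With limma on log2(RPKM + 1) across the 12493 genes that averaged at least 1 RPKM, 5 of the 7 genes were tested and all 5 were called higher at an adjusted p under 0.05. In the same fit 14.4% of all tested genes were called higher, 8.37% lower and 22.8% in either direction. Slc4a1 and Klf1 averaged under 1 RPKM and were not tested in that fit. Hbb-bh1 averaged under 1 RPKM in wild type and passed the filter through the Axin1 libraries. Hbb-b2 passed it on 69 reads in all, since its values imply a transcript length of 3.99 bases, which raises RPKM. The count of called genes is therefore a description and no measure of the group as a whole. The groups did not overlap, with Axin1 higher, for 6 of the 7 genes, against 20.7% of the 18917 genes with reads. The tested genes of the table were called higher in 1800 cases and lower in 1046, a split that became 1248 higher and 1392 lower when libraries were rescaled by the median of ratios. All 5 tested genes were called higher under that scaling too. The authors' deposited table had 5 of the 7 genes under an adjusted p of 0.05, with Hbb-b2 (0.0528) and Klf1 (1) above it, against 8.88% of its genes with reads in either direction.

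Hbb-y encodes the embryonic epsilon-type beta chain and had the highest RPKM of the 7 genes. It had 377, 550.3 and 279 RPKM in Axin1 replicates 1 to 3, against 105, 82.0 and 86.8 RPKM in wild-type replicates 1 to 3. The lowest Axin1 library, replicate 3, was above the highest wild-type library, replicate 1. The means were 402 ± 137 RPKM in Axin1 libraries and 91.3 ± 12.1 RPKM in wild-type libraries (SD, n = 3 each). The log2 fold change was 2.08 (SE 0.21, 95% interval 1.59 to 2.57, limma adjusted p = 0.000629). The values rested on 8492, 12616 and 3650 reads in Axin1 libraries and 4032, 2704 and 3085 reads in wild-type libraries. Counting error was thus small beside the spread between libraries. In these bulk libraries, more cells of a type and more RNA per cell cannot be told apart, for this gene and for those that follow.

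Hba-x encodes the embryonic zeta chain, the alpha-like partner of the embryonic beta-like chains. It had 58.0, 80.5 and 33.5 RPKM in Axin1 libraries, against 13.9, 10.6 and 7.72 RPKM in wild-type libraries. As with Hbb-y, Axin1 replicate 2 was the highest library and replicate 3 the lowest of its group, and the groups did not overlap. The means were 57.3 ± 23.5 RPKM in Axin1 libraries and 10.8 ± 3.12 RPKM in wild-type libraries (SD, n = 3 each). The log2 fold change was 2.26 (SE 0.30, 95% interval 1.58 to 2.93, limma adjusted p = 0.00226). The reads were 1267, 1788 and 424 in Axin1 libraries and 519, 339 and 266 in wild-type libraries. By log2 fold change, Hba-x ranked 3 and Hbb-y ranked 6 among the 12493 tested genes, and 0.0480% of the tested genes, 6 in all, had a log2 fold change of 2 or more. The others of these 6 were the ribosomal protein genes Rpl29, Rps18 and Rps2 and the chromatin protein gene Hmgn2.

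Hbb-bh1 encodes a further embryonic beta-like chain, which primitive erythroid cells make early in their maturation, before Hbb-y comes to predominate. It had 4.82, 5.31 and 1.94 RPKM in Axin1 libraries, against 0.714, 0.585 and 0.400 RPKM in wild-type libraries. The groups did not overlap, and Axin1 replicate 3 again stood lowest of its group. The means were 4.02 ± 1.82 RPKM in Axin1 libraries and 0.566 ± 0.158 RPKM in wild-type libraries (SD, n = 3 each). The log2 fold change was 1.61 (SE 0.25, 95% interval 1.04 to 2.18, limma adjusted p = 0.00456). With the added 1 RPKM, this scale understates a gene that is low in wild type. With limma-voom on the recovered reads of genes with at least 10 reads, the log2 fold change was 2.84 (95% interval 1.86 to 3.82, adjusted p = 0.00294). Behind these values were 107, 120 and 25 reads in Axin1 libraries and 27, 19 and 14 reads in wild-type libraries.

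Hbb-b2 is an adult beta globin gene, the minor chain of its locus. It had 109.8, 135 and 94.7 RPKM in Axin1 libraries, against 44.3, 42.2 and 21.8 RPKM in wild-type libraries. These levels came from 16, 20 and 8 reads in Axin1 libraries and 11, 9 and 5 reads in wild-type libraries, 69 reads in all. The table reached such RPKM from so few reads because its values imply a transcript length of 3.99 bases, against 617 bases for Hbb-y. At that length, the limit of 3 reads stood at 20.2 to 35.5 RPKM in Axin1 libraries and at 12.1 to 14.1 RPKM in wild-type libraries. The RPKM of Hbb-b2 can therefore not be set beside that of another gene. Within the gene, the means were 113 ± 20.3 RPKM in Axin1 libraries and 36.1 ± 12.47 RPKM in wild-type libraries (SD, n = 3 each). The log2 fold change was 1.67 (SE 0.25, 95% interval 1.11 to 2.24, limma adjusted p = 0.00366).

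The adult beta globin with a transcript-sized implied length was the row listed as Beta-s, which RefSeq names Hbb-bs. It had 82.9, 93.1 and 101 RPKM in Axin1 libraries, against 56.2, 46.8 and 44.1 RPKM in wild-type libraries, with no overlap. It was read 1930, 2204 and 1367 times in Axin1 libraries and 2226, 1592 and 1618 times in wild-type libraries, at an implied length of 637 bases. The means were 92.5 ± 9.22 RPKM in Axin1 libraries and 49.0 ± 6.34 RPKM in wild-type libraries (SD, n = 3 each), a ratio of 1.89. The log2 fold change was 0.91 (SE 0.11, 95% interval 0.66 to 1.15, limma adjusted p = 0.0012). Unlike the embryonic globins, Beta-s was highest in Axin1 replicate 3. Of the other beta-like globins listed, Hbb-b1 and Hbb-bh2 were at 0 in every library.

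The adult alpha globins Hba-a1 and Hba-a2 were also listed at 0 in every library, so adult alpha chains could not be measured. Near-identical copies make up the adult globin loci, and the sources used here do not say how reads that match several copies were counted. The theta-like genes Hbq1a and Hbq1b had 1 and 6 reads in Axin1 libraries and 3 and 0 reads in wild-type libraries, at or near the limit that a count of 0 allows. Hbb-y, Hba-x, Hbb-bh1, Hbb-b2 and Beta-s together, from recovered reads scaled to library depth as in RPKM but not to length, came to 325, 452 and 259.7 RPM in Axin1 libraries, against 109, 87.1 and 86.3 RPM in wild-type libraries. The groups did not overlap in this sum, of which Hbb-y made up the larger part in each library.

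**Figure D2:**
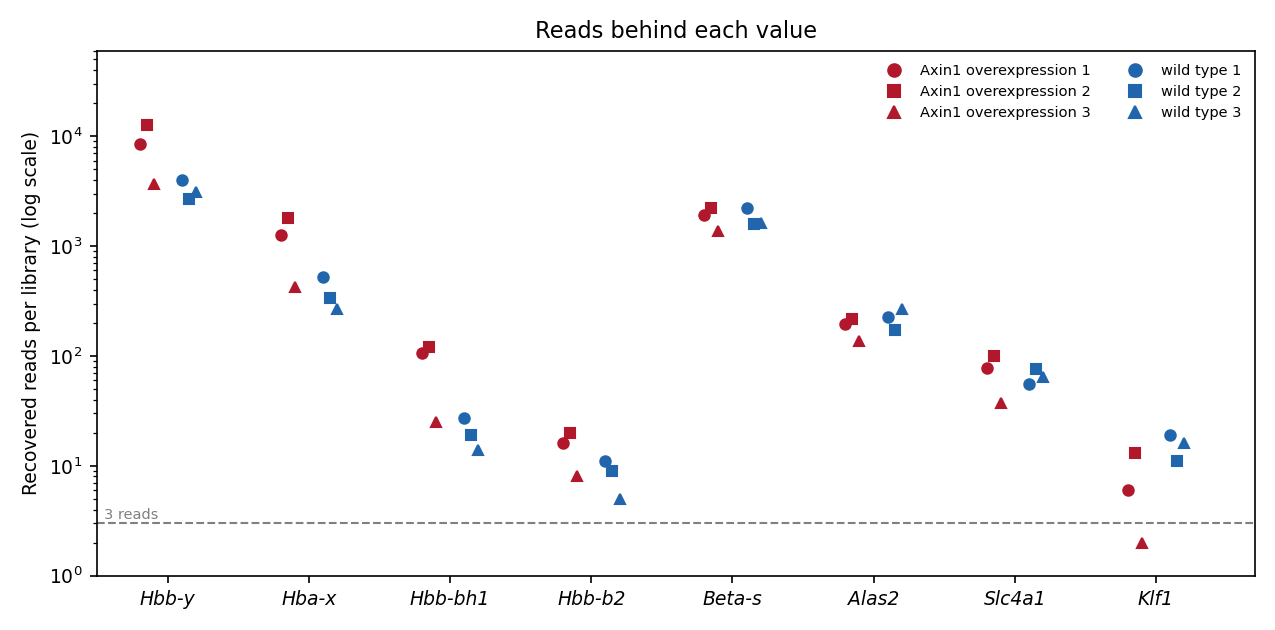
Recovered reads per library on a log axis for the 7 genes and Beta-s; red points are the 3 Axin1 overexpression libraries, blue points the 3 wild-type libraries, and the dashed line marks 3 reads. Hbb-y rests on 2704 to 12616 reads in a library, whereas Hbb-b2 and Klf1 rest on 2 to 20.

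Ratios within a library do not depend on its depth. The ratio of Hbb-y to Hba-x RPKM was 6.50, 6.84 and 8.34 in Axin1 libraries, against 7.53, 7.73 and 11.2 in wild-type libraries, so that the groups overlapped. The ratio of Hbb-y to Hbb-bh1 was 78.2, 104 and 144 in Axin1 libraries, against 147, 140.2 and 217 in wild-type libraries. These groups overlapped as well, by 1 library each. The ratio of Hbb-y to Beta-s was 4.54, 5.91 and 2.76 in Axin1 libraries, against 1.87, 1.75 and 1.97 in wild-type libraries, with no overlap. The ratio of Hbb-y to Alas2 was 137, 183 and 83.9 in Axin1 libraries, against 56.5, 49.7 and 36.3 in wild-type libraries, again with no overlap. The ratios are given as a description, without a test. With Hbb-b1 listed at 0 in every library, Beta-s may hold adult beta globin only in part.

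**Figure D3:**
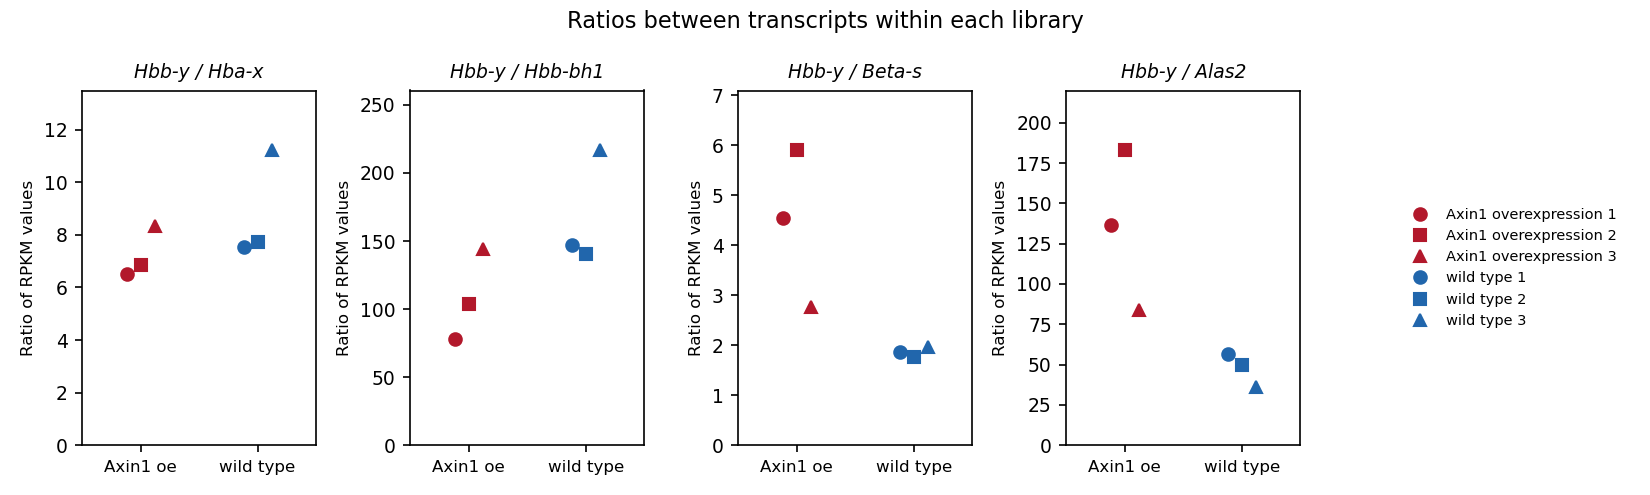
Ratios of RPKM within each library, with a panel and a linear axis from 0 for each ratio; red points are the 3 Axin1 overexpression libraries (Axin1 oe) and blue points the 3 wild-type libraries. The groups overlap for Hbb-y over Hba-x and over Hbb-bh1, and lie apart for Hbb-y over Beta-s and over Alas2.

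The embryonic genes Hbb-y and Hbb-bh1 made up 66.4%, 70.9% and 58.9% of summed beta-like globin RPKM in Axin1 libraries, against 51.3%, 48.1% and 57.0% in wild-type libraries. The means were 65.4% ± 6.05 in Axin1 libraries and 52.1% ± 4.48 in wild-type libraries (SD, n = 3 each). Hbb-b2 weighs on these shares through its short implied length. The adult gene Hbb-b1 was listed at 0 in every library, so adult beta globin may be counted only in part. By recovered reads the embryonic share averaged 79.8% ± 6.36 in Axin1 libraries and 64.4% ± 1.33 in wild-type libraries (SD, n = 3 each). The Axin1 libraries lay above the wild-type libraries on either measure, with the smallest gap at Axin1 replicate 3. Hba-x made up 99.8% ± 0.0250 of alpha-like globin RPKM in Axin1 libraries and 99.7% ± 0.297 in wild-type libraries (SD, n = 3 each), with the adult alpha globins listed at 0. With those genes at 0, the share does not measure embryonic against adult alpha chains.

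Alas2 had 2.75, 3.00 and 3.33 RPKM in Axin1 libraries, against 1.86, 1.65 and 2.39 RPKM in wild-type libraries. The groups did not overlap, and replicate 3 was the highest library of each group. The means were 3.03 ± 0.289 RPKM in Axin1 libraries and 1.97 ± 0.383 RPKM in wild-type libraries (SD, n = 3 each). The log2 fold change was 0.45 (SE 0.10, 95% interval 0.22 to 0.67, limma adjusted p = 0.0165). This call was lost without Axin1 replicate 2 (adjusted p = 0.0564) and without Axin1 replicate 3 (adjusted p = 0.0571), at log2 fold changes of 0.45 and 0.39. The row covers 2 transcripts, and about 197, 218 and 138 reads were recovered in Axin1 libraries and 226, 172 and 270 in wild-type libraries.

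All 13 genes of haem synthesis and its transport steps were tested, of which 1 rose and 1 fell. The gene that rose was Alas2, and the gene that fell was Abcb10, a mitochondrial transporter, with a log2 fold change of -0.25 (limma adjusted p = 0.0180). The Abcb10 call was lost without Axin1 replicate 2. Alas1, the housekeeping form of the first enzyme, averaged 19.0 ± 2.63 RPKM in Axin1 libraries and 18.2 ± 1.74 RPKM in wild-type libraries (SD, n = 3 each), with overlap. The later enzymes Alad, Uros, Cpox and Fech had log2 fold changes of -0.09, 0.12, 0.11 and 0.02, and none of these passed the test. The median of the list was 0.05, against 0.04 over all tested genes, and without Alas2 it was 0.03. Most of the list stood above Alas2 in level, with Alad at 51.1 ± 6.66 RPKM in Axin1 libraries and 54.3 ± 3.34 RPKM in wild-type libraries (SD, n = 3 each). The part of erythroid cells in these values was not tested.

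Slc4a1, known as band 3, anchors the membrane skeleton of red cells and exchanges bicarbonate for chloride. It had 0.465, 0.587 and 0.385 RPKM in Axin1 libraries, against 0.198, 0.314 and 0.245 RPKM in wild-type libraries. Each Axin1 library was above each wild-type library. The means were 0.479 ± 0.102 RPKM in Axin1 libraries and 0.252 ± 0.0579 RPKM in wild-type libraries (SD, n = 3 each). There were 77, 99 and 37 reads in Axin1 libraries and 56, 76 and 64 reads in wild-type libraries. Whether Slc4a1 was called depended on the test. With no filter on level, limma gave a log2 fold change of 0.24 on the log2(RPKM + 1) scale and an adjusted p of 0.0626, where 13.3% of 18917 genes were called in either direction. With limma-voom on recovered reads the log2 fold change was 0.99 (95% interval 0.48 to 1.51, adjusted p = 0.0170), where 18.0% of 16717 genes were called in either direction. The authors' deposited table gave it an adjusted p of 0.0104.

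Of 19 genes of the erythroid membrane and its skeleton, 6 were tested, 2 rose and 3 fell, with a median log2 fold change of -0.09. The glycophorin gene Gypc rose by 0.37 (limma adjusted p = 0.0056) and the dematin gene Epb4.9 by 0.25 (adjusted p = 0.0427). The beta-spectrin gene Sptb fell by 0.76 (adjusted p = 0.0025), to 1.81 ± 0.240 RPKM in Axin1 libraries, against 3.79 ± 0.576 RPKM in wild-type libraries (SD, n = 3 each). The protein 4.1 gene Epb4.1 fell by 0.32 and the ankyrin gene Ank1 by 0.27. When a library was left out, 1 to 2 genes of the list were called higher, with 2 only in the fit without Axin1 replicate 1, and 1 to 2 lower, with 1 only in the fit without Axin1 replicate 3. Under median of ratios scaling 1 was called higher. These 5 genes are also used outside red cells. The other 13, which include Rhag, averaged under 1 RPKM. Rhag, a subunit of the Rh complex, had 5 reads in Axin1 libraries and 2 in wild-type libraries, or 0.0196 ± 0.0179 RPKM in Axin1 libraries and 0.00464 ± 0.00804 RPKM in wild-type libraries (SD, n = 3 each), with overlap.

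Klf1 had 0.107, 0.229 and 0.0618 RPKM in Axin1 libraries, against 0.200, 0.135 and 0.182 RPKM in wild-type libraries. The highest and the lowest of the 6 values were both in Axin1 libraries. The means were 0.133 ± 0.0863 RPKM in Axin1 libraries and 0.172 ± 0.0336 RPKM in wild-type libraries (SD, n = 3 each). Only 6, 13 and 2 reads stood behind the Axin1 values and 19, 11 and 16 behind the wild-type values. With limma-voom on recovered reads the log2 fold change was -0.36 (95% interval -1.37 to 0.64, adjusted p = 0.618). A rise as large as that of the embryonic globins lies outside this interval, whereas a rise the size of Alas2's does not lie outside it.

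Gata1, the master factor of the erythroid lineage, had 3, 2 and 4 reads in Axin1 libraries and 2, 1 and 2 reads in wild-type libraries. Scaled to depth and length, these were 0.0601 ± 0.0395 RPKM in Axin1 libraries and 0.0158 ± 0.00477 RPKM in wild-type libraries (SD, n = 3 each), with no overlap. Before scaling the counts overlapped, and only the 4 reads of Axin1 replicate 3 exceeded the limit of 3 reads. With limma-voom on recovered reads the log2 fold change of Gata1 was 1.51 and did not pass the test (adjusted p = 0.115). Of 14 erythroid transcription factor genes, 9 were tested, none rose and 1 fell, with a median log2 fold change of -0.13. Klf1, Gata1, Nfe2, Gfi1b and Myb averaged under 1 RPKM, so that this median does not cover them. Among the tested genes, Lmo2 averaged 230 ± 22.6 RPKM in Axin1 libraries and 263 ± 15.9 RPKM in wild-type libraries (SD, n = 3 each). The part of erythroid cells in the values of the tested genes was not tested. The gene that fell was Zfpm1, the partner of GATA1 known as FOG1, with a log2 fold change of -0.28 (limma adjusted p = 0.0190). No gene of the list was called lower without Axin1 replicate 2, Axin1 replicate 3 or wild-type replicate 1, and 1 was called higher without Axin1 replicate 1. Myb, a factor of blood progenitors, averaged 1.10 ± 0.0552 RPKM in Axin1 libraries and 0.749 ± 0.0668 RPKM in wild-type libraries (SD, n = 3 each). It averaged under 1 RPKM over the 6 libraries and was not tested in that fit, and limma-voom on recovered reads gave it a log2 fold change of 0.57 (adjusted p = 0.0203). Tal1 and Lmo2, which the endothelium also expresses, had log2 fold changes of -0.15 and -0.20 and did not pass the test. Bcl11a, the repressor of embryonic and foetal globins in definitive cells, had 0.27 and did not pass it either (adjusted p = 0.0721).

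**Figure D4:**
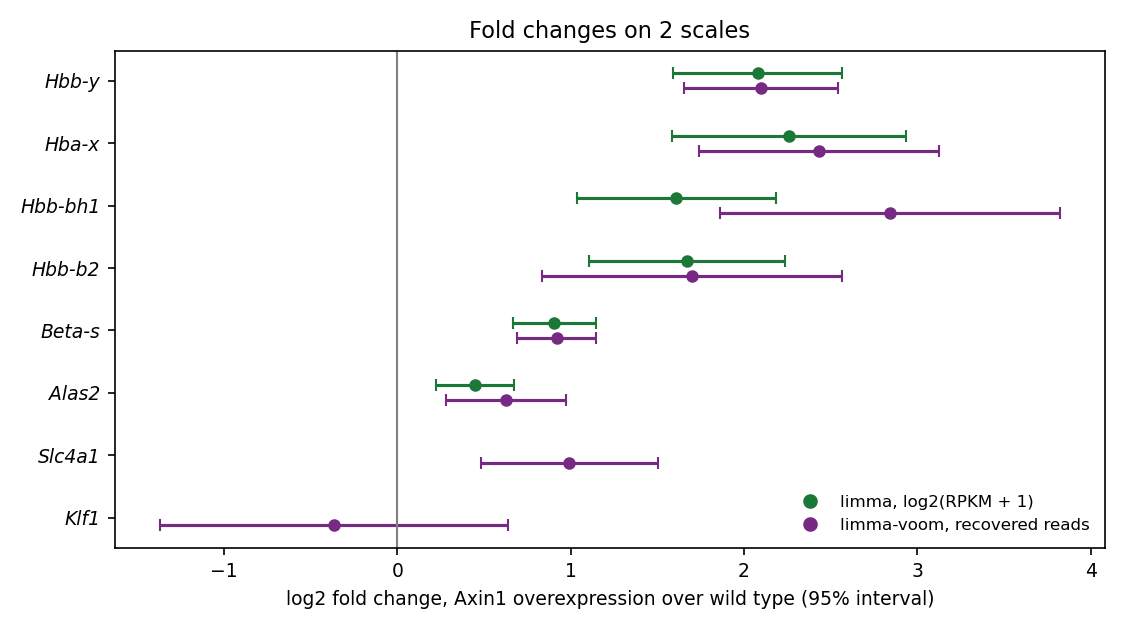
Log2 fold change, Axin1 overexpression over wild type, with its 95% interval, for the 7 genes and Beta-s; green is limma on log2(RPKM + 1), shown for tested genes, and purple limma-voom on recovered reads. Both scales place Hbb-y and Hba-x between 2.08 and 2.43, and the Klf1 interval spans 0.

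Of 21 listed genes of erythroid maturation, iron uptake and red cell enzymes, 15 were tested, 1 rose and 7 fell, with a median log2 fold change of -0.07. The gene that rose was Prdx2, an abundant red cell peroxiredoxin found in many cell types, by 0.32 (limma adjusted p = 0.0207). Tfrc, the transferrin receptor, which brain endothelium also carries, fell by 0.96 (adjusted p = 0.0166), to 15.3 ± 5.14 RPKM in Axin1 libraries, against 30.3 ± 6.86 RPKM in wild-type libraries (SD, n = 3 each). The other genes that fell were Steap3, a ferrireductase, Slc11a2, an iron transporter, Epor, the erythropoietin receptor, Car2, a carbonic anhydrase, Blvrb, a biliverdin reductase, and Fam132a. Their log2 fold changes were -0.62, -0.36, -0.58, -0.48, -0.46 and -0.78. When a library was left out, 4 to 7 genes were called lower, with 4 without Axin1 replicate 2 or wild-type replicate 1, and the Prdx2 call was lost without Axin1 replicate 2 or 3. Car1, a carbonic anhydrase abundant in adult red cells, was listed at 0, and Hemgn, an erythroid nuclear protein gene, had 9 reads in Axin1 libraries and 12 in wild-type libraries, or 0.0385 ± 0.0390 RPKM in Axin1 libraries and 0.0296 ± 0.0347 RPKM in wild-type libraries (SD, n = 3 each), with overlap.

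Apart from Slc4a1 and Klf1, 28 genes of the globin and erythroid lists were under 1 RPKM on average, 5 of them listed at 0 in every library. The groups did not overlap in 6 of the 28 with Axin1 higher and in 1 with Axin1 lower, against 20.7% and 13.4% of all genes with reads. The 28 include the 5 genes at 0, in which groups cannot lie apart, while those shares leave out genes at 0. The summed level of the 28 genes was 4.01, 4.61 and 3.89 RPKM in Axin1 libraries, against 3.25, 3.21 and 3.39 RPKM in wild-type libraries. Each Axin1 library was above each wild-type library in this sum, which held 445, 515 and 243 reads in Axin1 libraries and 659, 554 and 662 reads in wild-type libraries. Myb had the highest group mean of the 28 genes, at 1.10 RPKM in Axin1 libraries, against 0.749 RPKM in wild-type libraries. The sum was not taken without Myb.

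**Figure D5:**
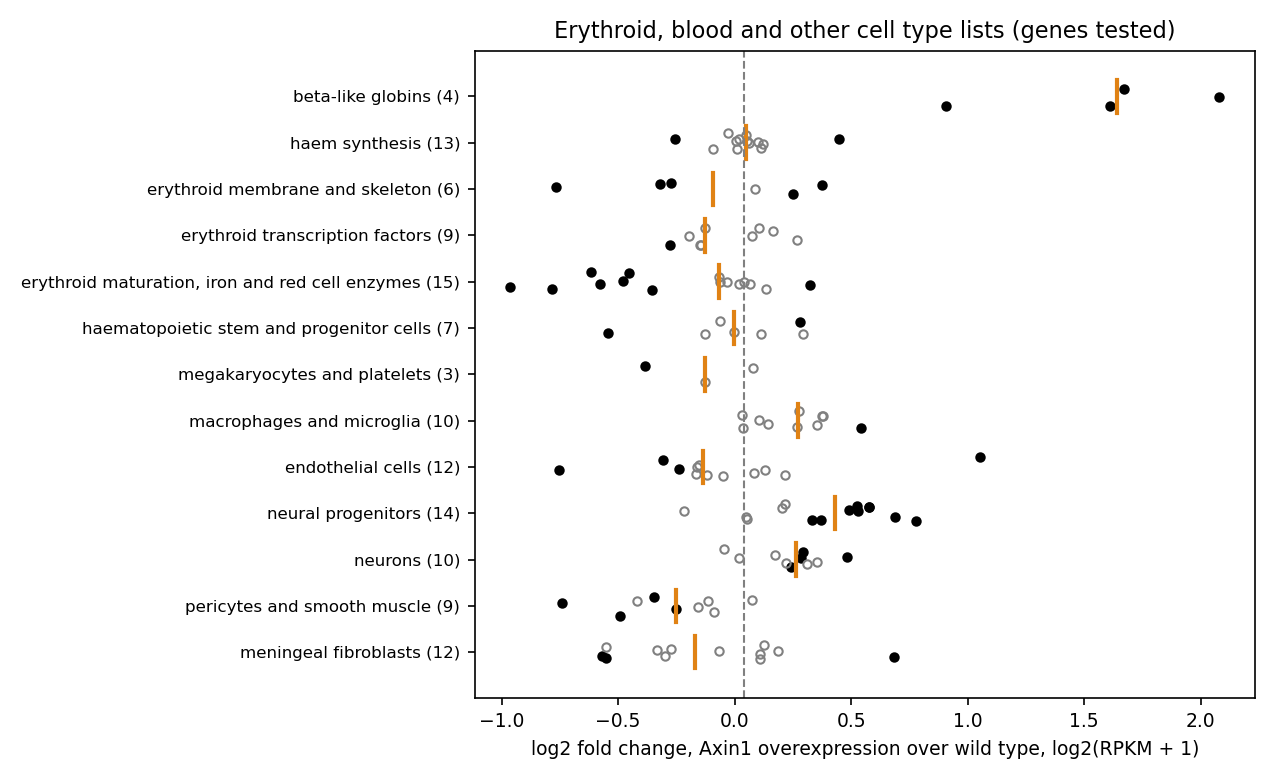
Log2 fold change, Axin1 overexpression over wild type, on the log2(RPKM + 1) scale, for the tested genes of each list, with the number tested in brackets; filled points passed an adjusted p of 0.05, open points did not, orange bars are list medians and the dashed line is the median of all tested genes, 0.04. Beta-like globins lie between 0.91 and 2.08, while the medians of haem synthesis and of the erythroid transcription factors are 0.05 and -0.13. Genes averaging under 1 RPKM, Klf1 and Gata1 among them, are not shown and do not enter the medians.

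Markers of other cells moved in the same libraries. Of 10 tested macrophage and microglia genes, 1 rose and none fell. The gene that rose was Aif1, a calcium-binding protein of microglia (log2 fold change 0.54, limma adjusted p = 0.0346). The summed level of the list was 77.9, 44.7 and 53.0 RPKM in Axin1 replicates 1 to 3, against 44.8 to 48.1 RPKM in wild-type libraries, with overlap. The Aif1 call was lost under median of ratios scaling and without Axin1 replicate 3 or any of the wild-type libraries, while 3 genes of the list were called higher without Axin1 replicate 2. Of 14 neural progenitor genes 9 rose and none fell, with sums of 2315 to 2411 RPKM in Axin1 libraries and 1798 to 1960 RPKM in wild-type libraries, and 5 rose without Axin1 replicate 2. In this list 1 gene was called lower without Axin1 replicate 1 and under median of ratios scaling. Of 10 neuronal genes 4 rose and none fell, with sums of 643 to 665 RPKM in Axin1 libraries and 516 to 665 RPKM in wild-type libraries. This count was 0 without Axin1 replicate 2 or 3, 1 without Axin1 replicate 1 or wild-type replicate 3, and 2 without wild-type replicate 2 or under median of ratios scaling. Of 9 tested pericyte and smooth muscle genes none rose and 4 fell, with sums of 31.5 to 44.5 RPKM in Axin1 libraries and 43.5 to 51.4 RPKM in wild-type libraries. Here the count was 0 without Axin1 replicate 2, Axin1 replicate 3 or wild-type replicate 1, and 1 without wild-type replicate 3. Of 12 meningeal fibroblast genes 1 rose and 2 fell, with sums of 692 to 737 RPKM in Axin1 libraries and 523 to 659 RPKM in wild-type libraries. The higher sum came from Igf2, a growth factor gene, at 445.9 ± 20.7 RPKM in Axin1 libraries and 277 ± 12.3 RPKM in wild-type libraries (SD, n = 3 each). Without it the sums were 269 to 275 RPKM in Axin1 libraries and 244 to 370.1 RPKM in wild-type libraries. No gene of this list was called lower without Axin1 replicate 2 or 3, 1 was without Axin1 replicate 1, without wild-type replicate 1 or 3 and with a pseudocount of 0.1 RPKM, and 4 were without wild-type replicate 2. In the fit without wild-type replicate 1, 2 were called higher. The part of these cell types in the globin values was not tested.

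The gene lists of other blood lineages gave few calls. The part of blood cells in the values of their tested genes was not tested. Of the 9 stem and progenitor genes, 2 averaged under 1 RPKM and were left out of the fit. Of 7 tested stem and progenitor genes 1 rose and 1 fell, namely Meis1, a homeobox gene, by 0.28 (limma adjusted p = 0.0224), and Kit, a growth factor receptor gene, with a log2 fold change of -0.54 (adjusted p = 0.000816). The Meis1 call was lost without any 1 of the Axin1 libraries. Of 10 megakaryocyte and platelet genes 3 were tested, none rose and Gp1bb, a platelet receptor subunit gene, fell, and the summed level was 13.8 to 16.6 RPKM in Axin1 libraries and 14.3 to 18.6 RPKM in wild-type libraries. The Gp1bb call was lost without any 1 of the Axin1 libraries or without wild-type replicate 1. The 12 endothelial genes summed to 3352 to 3570 RPKM in Axin1 libraries and 3822 to 3982 RPKM in wild-type libraries. The lower sum came from Cldn5, the tight junction claudin, at 748 ± 61.3 RPKM in Axin1 libraries and 1263 ± 104 RPKM in wild-type libraries (SD, n = 3 each). Without Cldn5 the sums were 2615 to 2861 RPKM in Axin1 libraries and 2618 to 2691 RPKM in wild-type libraries, with overlap. The sums without Cldn5 still held genes called higher and genes called lower, so their overlap does not mean that each gene was unchanged. Of the endothelial genes 1 to 3 were called lower when a library was left out, with 3 only without wild-type replicate 2 and 1 only without Axin1 replicate 2, and 2 were called higher without wild-type replicate 2.

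The genes whose values across the 6 libraries were most like the mean profile of the 5 tested genes were Nxpe4, 2610507I01Rik, Plvap, Mall, Gpihbp1, Fam70a, Kcne3 and Axin1. Likeness was the root mean square difference of centred log2(RPKM + 1) values, which was 0.213 to 0.299 for these 8 genes, against a median of 0.829 over all tested genes. Nxpe4 was the closest, at 6.56 ± 1.65 RPKM in Axin1 libraries and 1.00 ± 0.208 RPKM in wild-type libraries (SD, n = 3 each). Plvap, which encodes the diaphragm protein of fenestrated vessels, was 0.286 from the profile. The 5 genes themselves lay 0.164 to 0.671 from their own mean profile. All these genes share the difference between the groups, and the 6 libraries hold little other variation to order them by.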

How the data were processed

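Ribosome-bound RNA was purified by TRAP and made into libraries with a TruSeq kit, per the labels' protocols. Bowtie, DESeq and the mouse build mm9 are named in the submitters' processing notes. For the counting of reads and for filters, nothing is given in the sources used here. The authors deposited RPKM per gene and library, a unit settled from the values. The authors also deposited, per the file headers, the mean normalized count signal of each group, a fold ratio and p-values. The deposited fold equals wild type over Axin1, and all other fold changes here are Axin1 over wild type.

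Reads were recovered from RPKM and the group means. Of values of genes with 1 transcript, 99.9939% came out whole within 0.05 reads, against 83.6395% of all values. Replicates differed by more than sampling noise, at a chi-square per degree of freedom of 7.59 to 45.5.

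In R 4.3.3, limma 3.58.1 took log2(RPKM + 1) values, a scale that understates the change of low genes, for genes averaging at least 1 RPKM, with group as the only factor. Adjusted p is two-sided, by Benjamini-Hochberg over all tested genes, with a threshold of 0.05. Limma-voom was run on recovered reads. The voom fit on all genes with at least 10 reads, the globin shares without Hbb-b2, and the list sums without Igf2 or Cldn5, were chosen after seeing the data. Other alternatives were pseudocounts of 0.1 and 10 RPKM, no filter, median of ratios scaling, trend and robust variances, a replicate block and leaving out each library. Tables and plots were made with numpy 2.4.6, pandas 2.3.3 and matplotlib 3.10.9 in Python 3.11.15.

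The 7 genes and the lists were chosen with earlier results of these data known. The rule for named genes took these 7, the 3 tested genes of lowest p in each list, further genes of the globin and erythroid lists, and the 8 genes most like the mean profile. Lists of other cell types are given mainly by their counts. Some listed genes are not reported here. List names matched by symbol in 167 cases and by transcript in 2 cases (Beta-s and Sfpi1), and 6 names were not matched. Promoters are from RefSeq on GRCm38.p6, while RPKM rests on mm9, so no coordinates were carried between the builds.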

Additional observations from a re-analysis of the deposited data

How the results depend on the processing

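Hbb-y, Hba-x, Hbb-bh1 and Hbb-b2 kept their direction and an adjusted p under 0.05 under every alternative run. Leaving out each library in turn gave log2 fold changes of 1.83 to 2.31 for Hbb-y, 1.97 to 2.59 for Hba-x, 1.41 to 1.96 for Hbb-bh1 and 1.35 to 1.85 for Hbb-b2. Alas2 ranged over 0.37 to 0.55, with adjusted p of 0.00925 to 0.0571, and lost its call without Axin1 replicate 2 (0.45) or 3 (0.39). The untested differences of Slc4a1 ranged over 0.19 to 0.29 and those of Klf1 over -0.11 to -0.01. For Slc4a1, a pseudocount of 0.1 RPKM gave 0.72, one of 10 RPKM gave 0.0315 and voom on recovered reads gave 0.99. For Klf1, a pseudocount of 0.1 RPKM gave -0.28 and voom -0.36. The added constant weighs most on genes under 1 RPKM by construction. For Hbb-bh1, pseudocounts of 0.1 and 10 RPKM gave 2.54 and 0.40. The medians of haem synthesis, membrane, transcription factor and maturation lists kept their sign, at 0.01 to 0.08, -0.13 to -0.06, -0.18 to -0.08 and -0.18 to -0.05. Counts over all genes ranged over 1054 to 2318 called, 589 to 1492 higher and 465 to 933 lower when a library was left out. Without Axin1 replicate 2 they were 1054 called, 589 higher and 465 lower. Without Axin1 replicate 3 they were 1402, 801 and 601, and without wild-type replicate 1 there were 1186 higher. Fewer samples enter these fits, and the cause was not tested further. The embryonic share of beta-like globin was 79.8% in Axin1 and 64.4% in wild-type libraries by reads, and 80.4% and 65.2% without Hbb-b2, since that row has few reads at a short implied length. By reads, the Hba-x share was 99.7946% in Axin1 libraries, again with the adult alpha globins listed at 0. With the replicate number as a block, 2675 genes were called, 1591 higher and 1084 lower, and no call among the 5 tested genes changed. Deviations of same-numbered libraries correlated at 0.0785, 0.127 and 0.0593, so the numbers were not taken as pairs. Depth limits Hbb-b2, Klf1 and, in wild type, Hbb-bh1 most.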

Other observations

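Row names, each a symbol with its transcripts, were often at 0 where listed more than once in the table. Of 231 such names, 201 (87.0%) were at 0 in every row and library, against 18.6% of names listed once. Counted by symbol, Hba-a1 and Hba-a2 had 2 rows each. The implied transcript length of 3.99 bases placed Hbb-b2 among 13 of the 12493 tested genes with under 50 bases.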
